A study of Mus musculus with 6 samples.

Results

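The let-7 family is a set of small regulatory RNAs that share the seed, the stretch near the 5′ end that pairs with target messenger RNAs, and miR-98 carries the same seed under another name. They were measured in retinal cells of mice with experimental autoimmune uveoretinitis (EAU), a T-cell-driven inflammation of the retina that serves as a model of human uveitis, and in retinal cells of naive mice. The members were the capture probes on the array named mmu-let-7a, mmu-let-7b, mmu-let-7c, mmu-let-7d, mmu-let-7e, mmu-let-7f, mmu-let-7g, mmu-let-7i and mmu-miR-98, written below without the prefix for mouse. These 9 probes, with 4 spots each, were 9 of 597 probes that name a mouse miRNA. The EAU group held 3 samples taken on day 14, with the start of the count not stated, and the naive group held 3 samples. All were B10.RⅢ mice aged 8 weeks, and every sample was harvested independently. The labels give neither the number of mice behind a sample nor the way EAU was induced, and the p-values measure the spread between these harvests. The RNA of each sample (800 ng) carried the dye Hy3 and was hybridised beside a Hy5-labelled pool of equal amounts of the samples, so a level is given as log2(Hy3/Hy5) and a difference as EAU minus naive on that scale.

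Let-7 RNAs are cut from hairpin precursors by Drosha and Dicer, and the guide strand is loaded into an Argonaute protein, where the seed directs repression of messenger RNAs. In vertebrates the family rises as neurons and retinal progenitors mature, and the RNA-binding protein LIN28 blocks the processing of let-7 precursors in early cells. Known targets include Lin28a, Hmga2 and Ras genes, and let-7 also restrains several cytokine messages.

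All 9 members matched a RefSeq mature sequence (mouse build GRCm38.p6). The sequences are shown because the members differ only at bases outside the shared seed. The seed, bases 2 to 8 from the 5′ end, is in capitals.
let-7a: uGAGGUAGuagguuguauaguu
let-7b: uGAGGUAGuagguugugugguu
let-7c: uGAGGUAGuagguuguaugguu
let-7d: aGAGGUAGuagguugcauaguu
let-7e: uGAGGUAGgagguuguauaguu
let-7f: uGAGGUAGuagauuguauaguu
let-7g: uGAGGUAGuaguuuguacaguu
let-7i: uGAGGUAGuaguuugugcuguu
miR-98: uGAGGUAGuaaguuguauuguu

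Each member is 22 bases long, and all 9 hold the seed GAGGUAG. Against let-7a, with positions counted from 1 at the 5′ end and the let-7a base first, let-7c carries A19G, let-7b carries A17G and A19G, let-7f carries G12A, and let-7e carries U9G. Let-7d carries U1A and U16C, let-7g carries G12U and U18C, miR-98 carries G11A and A19U, and let-7i carries G12U, A17G, U18C and A19U. Of the 36 pairs of members, 4 differ by 1 base and the most distant pair by 6. Capture probes for such close sequences can take up one another's RNA. The probes' own sequences were not used here, so the amount of such cross-hybridisation was not tested.

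The mature sequences lie at 11 places of the RefSeq table. The genes Mirlet7a-1, Mirlet7f-1 and Mirlet7d lie within 2237 bases on the minus strand (chr13:48536024-48538260), outside any other gene of the table. Mirlet7c-2 and Mirlet7b lie within 785 bases (chr15:85706616-85707400), inside the bounds of the long noncoding RNA gene Lncppara. Mirlet7f-2 and Mir98 lie within 956 bases (chrX:151912353-151913308), inside the bounds of the protein-coding gene Huwe1, which encodes a ubiquitin ligase. Mirlet7e lies inside Spaca6 and close to Mir99b and Mir125a, and Mirlet7g lies inside Wdr82. Mirlet7i (chr10:122985698-122985719) lies outside other genes, and Mirlet7c-1 lies beside Mir99a on chromosome 16. Mature let-7c and let-7f are listed at 2 hairpins each, and a probe for the mature strand cannot tell those hairpins apart. The 11 places leave out Mirlet7a-2 on chromosome 9, of which the table lists only the passenger strand.

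The retinal label was borne out by the retinal markers miR-183, miR-96, miR-182, miR-124 and miR-9, of which 5 of 5 lay above the blank spots on every array. Their summed Hy3 brightness was 6340 to 18313 in EAU and 46647 to 52861 in naive, and 2 of them, miR-183 and miR-9, fell in limma. Most of that sum is miR-124, which did not pass (-0.69, adjusted p = 0.52). The other 4 summed to 513 to 1397 in EAU and 2948 to 3409 in naive. The pigment epithelium markers miR-204 and miR-211 summed to 242 to 1224 in EAU and 1256 to 1604 in naive, and both fell. Of 5 leukocyte markers, 4 lay above the blanks on all EAU arrays and 2 on all naive arrays, with sums of 535 to 1255 in EAU and 308 to 366 in naive. Among those, miR-142-3p rose, and no array had miR-155 above the blanks. The 3 erythroid markers summed to 140 to 348 in EAU and 131 to 146 in naive, with miR-486 lower, and the 2 endothelial ones to 103 to 298 in EAU and 112 to 198 in naive. These shifts of other cell types' markers move with every difference below, and their part in it was not tested. In RNA of whole samples, fewer cells of a type and less RNA per cell cannot be told apart. The EAU arrays were scanned on 1 day and the naive arrays on another, and the effects of scan day and disease cannot be told apart. EAU replicate 3 had the fewest mouse probes above the blanks in Hy5, 122, against 205 and 262 on the other EAU arrays and 210 to 279 on the naive arrays.

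Most let-7 levels were lower in EAU. Of 8 testable members, 5 fell (let-7a, let-7f, let-7g, let-7i and miR-98) and 3 did not pass the test (let-7b, let-7c and let-7d), at an adjusted p of 0.05 in limma with Benjamini-Hochberg adjustment over 595 mouse probes. Over all tested probes 52 fell, which is 8.74%, and 25 rose. The median difference was -0.27 over the 8 members and -0.01 over all probes. Among the 249 probes above the blank spots in Hy3 on at least 3 arrays, 37 fell (14.9%), 25 rose and the median was -0.04. All 8 members were among these, and 5 fell in that fit, with let-7d in place of let-7i. The member differences were -0.66 for let-7a, -0.60 for let-7f, -0.50 for let-7d, -0.33 for let-7g, -0.22 for miR-98, -0.18 for let-7i, -0.14 for let-7c and -0.09 for let-7b. In 7 of the 8, let-7b being the exception, every EAU array lay under every naive array. The same was so for 174 of 592 probes with a value on all arrays (29.4%).

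The size of the family's difference, and the direction of some members, depended on the scaling within arrays. The median over the 8 members was -0.27 with loess, -0.12 with median centring and -0.05 with no normalization. All 8 tested members were lower in EAU after loess, the normalization used here, which removes any trend of the ratio with brightness. With median centring in its place, or with no normalization, 5 of 8 were lower and let-7b, let-7c and let-7i were higher. No member passed in either setting, against 2 members at an unadjusted p under 0.05 in limma in each. With median centring these were miR-98, lower in EAU (-0.36), and let-7b, higher (0.52). With no normalization they were let-7b (0.59) and let-7c (0.55), both higher in EAU. The split of all calls moved too: 25 higher and 52 lower with loess, 1 and 1 with median centring, and 21 higher and 4 lower with no normalization. It was 19 and 4 with loess fitted on bright spots, 42 and 30 with the scanner program's processed signals, and 42 and 40 in the authors' deposited table.

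**Figure D1:**
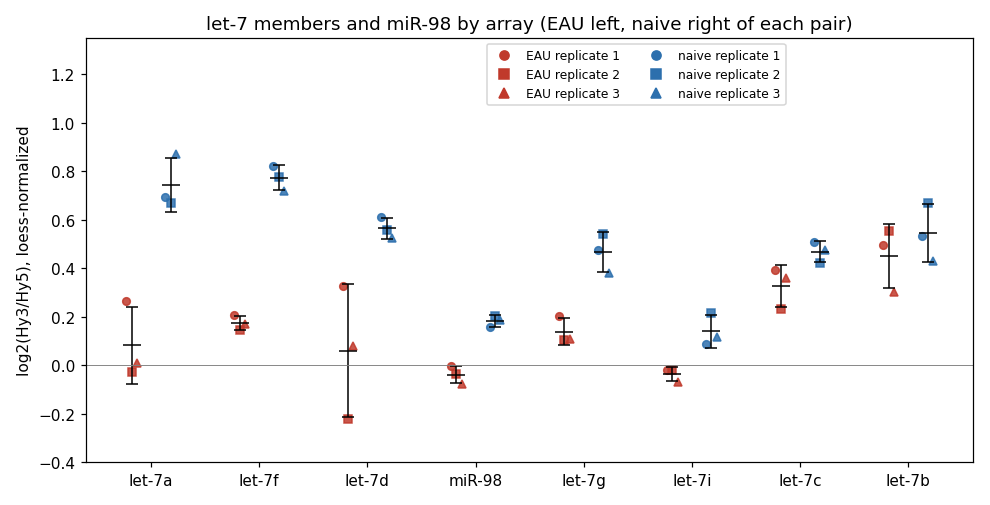
Level of each tested member, as log2(Hy3/Hy5) after loess (vertical axis), on the 3 EAU arrays (red, left of each pair) and the 3 naive arrays (blue, right). Bars give the mean and SD. The EAU and naive points overlap in let-7b alone. In let-7b, let-7c and let-7i the direction turned with median centring and with no normalization.

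The members made from the chromosome 13 cluster, let-7a, let-7f and let-7d, had the largest differences of the 8 after loess, an order that some other settings did not keep. With Hy3 alone, let-7g (-0.54) and miR-98 (-0.52) had the largest, and let-7a had -0.24. Let-7f, which differs from let-7a by 1 base, had log2 ratios of 0.21, 0.15 and 0.17 on EAU arrays 1 to 3, against 0.82, 0.78 and 0.72 on naive arrays 1 to 3. With outlier spots left out, the arrays within each group lay close together and the groups were far apart. Let-7f was thus 1.51-fold higher in naive (difference -0.60, SE 0.03; limma adjusted p = 0.00263). It kept an adjusted p under 0.05 whichever array was left out (0.00744 to 0.037). The spots left out as outliers were 1 of 4 on EAU array 1 and 2 of 4 on EAU array 2. With these spots kept, its log2 ratios were 0.39, -0.13 and 0.17 on EAU arrays, and the naive values did not change. The difference was then -0.63 (SE 0.13, limma adjusted p = 0.0387).

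Let-7a, the reference member of the family, had log2 ratios of 0.27, -0.03 and 0.01 on EAU arrays and 0.69, 0.67 and 0.87 on naive arrays. EAU replicate 1 was the highest of its group and still lay below all naive arrays. Let-7a was 1.58-fold higher in naive (difference -0.66, SE 0.10; limma adjusted p = 0.0179). Its call was lost without EAU replicate 3 (adjusted p = 0.0729), without naive replicate 1 (0.0842) and without naive replicate 2 (0.0612).

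Let-7d, whose hairpin lies beside those of let-7a-1 and let-7f-1, had log2 ratios of 0.33, -0.22 and 0.08 on EAU arrays and 0.61, 0.56 and 0.52 on naive arrays. The EAU arrays spread widely and the naive arrays did not, and the groups did not overlap. The difference of -0.50 (SE 0.14) did not pass (limma adjusted p = 0.0698). It passed without EAU replicate 1, the highest EAU array (-0.64, adjusted p = 0.029).

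MiR-98, whose gene shares an X-chromosome cluster with Mirlet7f-2, had a smaller difference. It had log2 ratios of -0.00, -0.04 and -0.08 on EAU arrays and 0.16, 0.21 and 0.19 on naive arrays. The groups were narrow and separate. The difference was -0.22 (SE 0.03; limma adjusted p = 0.0149). It was a dim probe: its Hy3 signal was above the blanks on 1 of 3 EAU arrays and on 3 of 3 naive arrays, and its Hy5 signal on 1 of 3 EAU arrays and on 2 of 3 naive arrays. Its call was lost without EAU replicate 3, naive replicate 1 or naive replicate 2 (adjusted p 0.0517 to 0.0547).

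Let-7g and let-7i, each from a hairpin with no let-7 neighbour, also fell. Let-7g had log2 ratios of 0.20, 0.11 and 0.11 on EAU arrays and 0.47, 0.54 and 0.38 on naive arrays. All naive arrays lay above all EAU arrays, and let-7g was 1.25-fold higher in naive (difference -0.33, SE 0.05; limma adjusted p = 0.0205). The call was lost without EAU replicate 3 (0.0759), naive replicate 1 (0.0866) or naive replicate 2 (0.0612).

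Let-7i had log2 ratios of -0.02, -0.02 and -0.07 on EAU arrays and 0.09, 0.22 and 0.12 on naive arrays. The groups did not overlap, and the gap between the nearest arrays was small. The difference was -0.18 (SE 0.04; limma adjusted p = 0.0463), and it missed the threshold with any single array left out (0.0663 to 0.123). Its Hy5 signal was above the blanks on 1 of 3 EAU arrays and on 0 of 3 naive arrays, so the pool signal that its ratio is divided by lay mostly at the level of blank spots.

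Let-7b and let-7c, which alone carry A19G and share the chromosome 15 cluster, had the smallest differences after loess. With median centring (0.52 and 0.48) and with no normalization (0.59 and 0.55) theirs were the largest of the 8, and positive. Let-7c had log2 ratios of 0.39, 0.23 and 0.36 on EAU arrays and 0.51, 0.42 and 0.48 on naive arrays. The groups did not overlap, but the difference of -0.14 (SE 0.05) did not pass (limma adjusted p = 0.113).

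Let-7b had log2 ratios of 0.50, 0.55 and 0.30 on EAU arrays and 0.53, 0.67 and 0.43 on naive arrays. The groups overlapped, and the difference was -0.09 (SE 0.09; limma adjusted p = 0.499). The outlier spots left out were 2 of 4 on EAU array 1 and 3 of 4 on EAU array 2. On naive arrays they were 2 of 4 on array 2 and 1 of 4 on array 3. With these spots kept, the log2 ratios were 0.71, 0.42 and 0.30 on EAU arrays and 0.53, 0.47 and 0.34 on naive arrays. The difference was then 0.03 (limma adjusted p = 0.905).

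Let-7e, whose hairpin lies beside those of miR-99b and miR-125a, could not be tested as set out above. The scanner program marked 10 of its 12 spots on EAU arrays and 11 of 12 on naive arrays as outliers, although its 4 spots on an array differed by no more than 1.37-fold in Hy3. The arrays left with a value, 1 in each group, gave log2 ratios of -0.58 in EAU and -0.04 in naive. With the outlier spots kept, its log2 ratios were 0.23, 0.30 and 0.17 on EAU arrays and 0.01, 0.33 and 0.80 on naive arrays. Naive arrays reached both below and above the EAU arrays, and the difference was -0.15 (limma adjusted p = 0.634). Its direction turned in Hy3 alone with these spots kept (0.24, adjusted p = 0.474) and in the authors' deposited table (0.17, adjusted p = 0.743).

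The brightness of the sample channel shows what the ratios rest on. Brightness of different probes is no order of abundance, because probes bind with different strength. Let-7e had a Hy3 brightness above local background of 6520, 7455 and 4010 on EAU arrays and 4646, 4867 and 4368 on naive arrays. Let-7f had 778, 1022 and 243 on EAU arrays and 788, 600 and 725 on naive arrays. Let-7b had 1007, 2055 and 458 on EAU arrays and 911, 858 and 743 on naive arrays. In all 3, EAU replicate 2 was the brightest EAU array and EAU replicate 3 the dimmest, and the EAU arrays reached both above and below the naive ones.

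That spread between EAU arrays was shared by the pool. The Hy5 brightness of let-7f was 54.2, 100 and 17.1 on EAU arrays and 57.0, 67.8 and 44.1 on naive arrays. Dividing channel by channel before any normalization gave let-7f ratios of 14.4, 10.2 and 14.2 on EAU arrays and 13.8, 8.85 and 16.4 on naive arrays, and these overlapped. The same division gave let-7b ratios of 21.3, 17.1 and 20.1 on EAU arrays and 10.1, 6.55 and 11.4 on naive arrays, all higher in EAU. After loess, by contrast, let-7f lay lower in EAU on every array and the let-7b arrays overlapped.

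**Figure D2:**
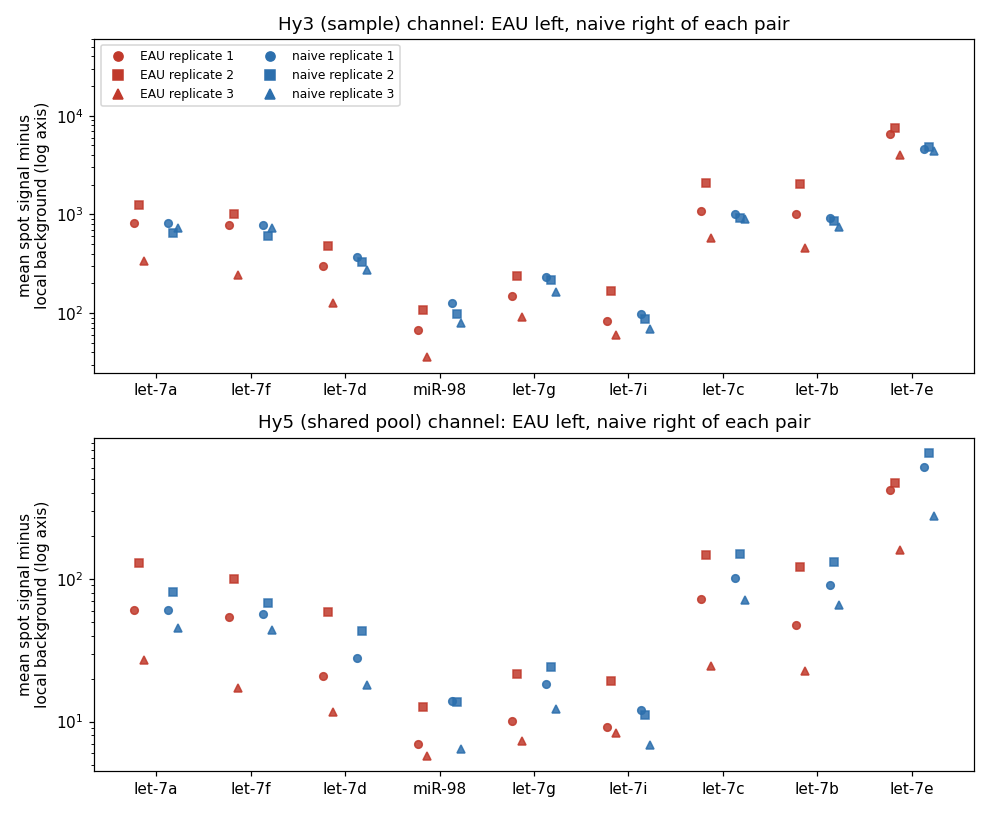
Brightness above local background of the 9 members in the Hy3 sample channel (top) and in the Hy5 pool channel (bottom), on log axes, with the EAU arrays left and the naive arrays right of each pair. EAU replicate 3 is the dimmest EAU array throughout, and for let-7e the Hy3 values are 4010 to 7455 in EAU and 4368 to 4867 in naive.

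With Hy3 alone, quantile-normalized between arrays, 1 of 8 members passed: let-7g at -0.54 (limma adjusted p = 0.00939). Over all probes 35 of 595 fell there (5.88%). The other values were -0.52 for miR-98, -0.50 for let-7d, -0.34 for let-7f, -0.24 for let-7a, -0.01 for let-7i, -0.00 for let-7c and 0.05 for let-7b. In the authors' deposited table there were 2 members that fell, let-7d at -1.23 (adjusted p = 0.00632) and let-7f at -0.74 (adjusted p = 0.0486), against 40 of 588 probes (6.80%). Let-7b and let-7c had positive differences in that table, 0.39 and 0.11. In the Hy5 channel, where every array held the same pool, 0 of 595 probes passed in limma, against 34 at an unadjusted p under 0.05. Hy5 was quantile-normalized between arrays in the same way, which removes differences in brightness of whole arrays before the test. The 8 members differed there by -0.10 to 0.26, the highest value being that of let-7a.

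The size of the differences changed with the constant added in the background step. With an offset of 10 in place of 50, let-7f differed by -0.76, let-7a by -0.83, let-7g by -0.50 and miR-98 by -0.52, and the same 5 members passed. Over the 13 other settings, let-7f passed in 10, let-7a in 8, let-7g and miR-98 in 7, let-7i in 4 and let-7d in 3. Let-7b and let-7c passed in none of them. These settings are not independent. The filter on probes above the blanks, the block for replicate number and the variance trend kept the main differences and changed only the test.

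**Figure D3:**
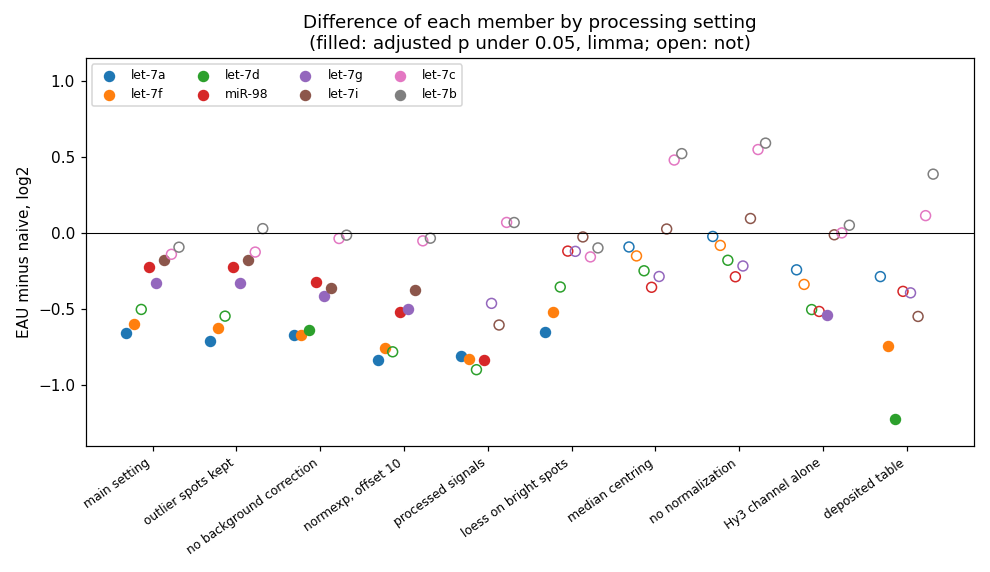
Difference of each tested member, EAU minus naive on the log2 scale (vertical axis), under 10 ways of processing the arrays (horizontal axis). Filled points passed an adjusted p of 0.05 in limma and open points did not. Let-7f, let-7a, let-7d, let-7g and miR-98 stay below 0 under all 10, and let-7b, let-7c and let-7i reach above 0 under some, median centring among them.

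Members were also set against each other on the same array, which removes what the whole array shares. On this scale let-7b minus let-7f was 0.29, 0.41 and 0.13 on EAU arrays and -0.29, -0.10 and -0.29 on naive arrays. Let-7b thus lay above let-7f, relative to the pool, on every EAU array and below it on every naive array. Let-7c minus let-7f was 0.19, 0.08 and 0.19 on EAU arrays and -0.32, -0.35 and -0.24 on naive arrays, and the 2 groups again lay on opposite sides of 0.

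Of the 28 pairs among the 8 members, 16 had within-array differences that did not overlap between EAU and naive. Over all pairs of mouse probes the share was 49.5%, so the count among members is near the background and is not a result about the family. With 3 arrays against 3, an exact permutation test of a single pair cannot go below a two-sided p of 0.1. In 8 of the 28 pairs the groups did not overlap and the sign was also the same in all 11 settings compared, including those without loess. Over all pairs of mouse probes with values in every setting this share was 36.8%, so this count too is no result about the family. These pairs were let-7a and let-7f each against let-7b and let-7c, let-7d against let-7b and let-7c, let-7b against let-7g, and let-7f against let-7i. The change of let-7b minus let-7f was 0.50 and ranged from 0.39 to 1.13 over these settings, and that of let-7c minus let-7f was 0.46 with a range of 0.34 to 0.90. Of the 11 settings, median centring and no normalization give identical within-array differences by construction, so they are not separate checks.

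**Figure D4:**
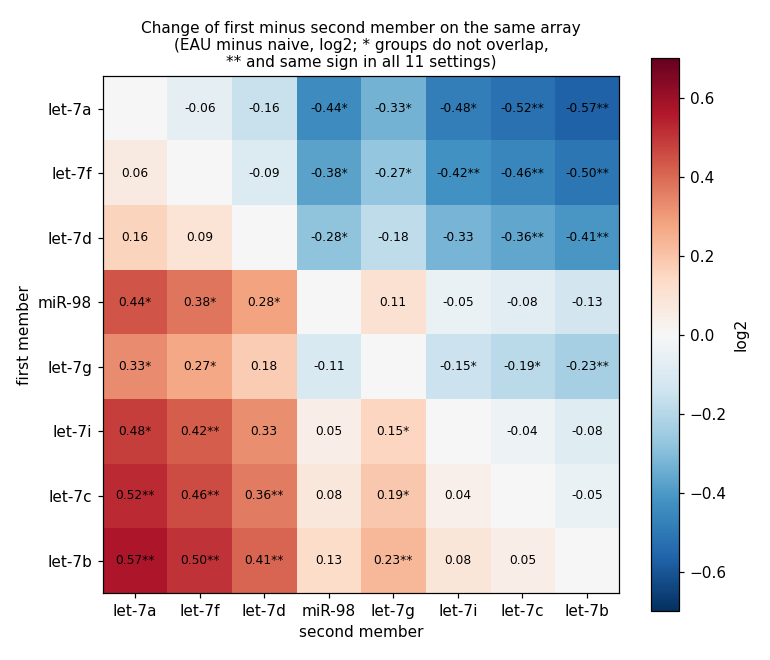
Change of the difference between row member and column member on the same array, EAU minus naive, as a log2 value printed in each cell and given by its colour. A single asterisk marks groups that do not overlap and a double one also the same sign in all 11 settings. Median centring and no normalization, both among these settings, give identical values here by construction. The cells of let-7a, let-7f and let-7d against let-7b and let-7c run from -0.57 to -0.36.

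Let-7a and let-7c differ by the base change A19G alone, and let-7a and let-7f by G12A alone. The change of let-7a minus let-7c was -0.52, with no overlap between the groups, and that of let-7a minus let-7f was -0.06, with overlap. Over the 11 settings, counted as above, the change ranged from -0.88 to -0.24 for let-7a minus let-7c. For let-7a minus let-7f the change ranged from -0.16 to 0.45 and kept its sign in 6 of these settings. Let-7b and let-7c, again 1 base apart, changed by 0.05 relative to each other, with overlap.

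The passenger strands, the opposite arms of the same hairpins that are mostly degraded, were measured by 7 mouse probes. None of the 7 passed in limma, and 0 were under an unadjusted p of 0.05. Their differences lay between -0.14, for let-7c-1*, and 0.01. Let-7f*, let-7g*, let-7i* and the probe for let-7a* and let-7c-2* were above the blanks in Hy3 on no array. Let-7d* was above them on all 6 arrays and differed by 0.01 (SE 0.03; adjusted p = 0.9).

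Probes that carry a let-7 name of another species only numbered 5, and they were fitted together with the mouse probes (600 in all). Their differences ran from -0.43 to 0.60. The 2 at the ends were singled out after their values were seen. The human let-7a probe, whose target has the same mature sequence as mouse let-7a, had log2 ratios of 0.42, 0.03 and 0.35 on EAU arrays and 0.61, 0.69 and 0.81 on naive arrays. As with the mouse probe, the groups did not overlap, but the difference of -0.43 (SE 0.12) missed the threshold (limma adjusted p = 0.0666). The probe for the human passenger strand hsa-let-7a-2* was not matched to a mouse sequence, so which mouse RNA it reads is unknown here. It had log2 ratios of 0.25, 0.60 and 0.16 on EAU arrays and -0.33, -0.28 and -0.18 on naive arrays. Its Hy3 brightness was 382, 787 and 190 on EAU arrays and 181, 165 and 149 on naive arrays, higher on every EAU array. The difference was 0.60 (SE 0.12; limma adjusted p = 0.0373). It remained past the threshold without EAU replicate 2 but not without any other single array, and missed it where median centring replaced loess (1.27, adjusted p = 0.0834) and where nothing did (1.34, adjusted p = 0.0608), although both differences were larger.

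Mirlet7a-2, Mirlet7c-1 and Mirlet7e, on chromosomes 9, 16 and 17, sit near genes of the miR-99/100 and miR-125 families, which were set beside them as neighbours. Their 5 mature strands all had negative differences, -0.36 for miR-125a-5p, -0.32 for miR-125b-5p, -0.20 for miR-99a, -0.20 for miR-100 and -0.16 for miR-99b. None of the 5 passed in limma after adjustment, and 4 were under an unadjusted p of 0.05. MiR-99b and miR-125b-5p turned to 0.04 and 0.02 with no normalization, and miR-100 to 0.23 in the authors' deposited table.

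The mean log2 ratio of the 8 members was 0.23, 0.09 and 0.11 on EAU arrays and 0.49, 0.51 and 0.46 on naive arrays. Among 154 other mouse probes above the blanks on all 6 arrays, those whose ratios followed this mean most closely were miR-30d (Pearson's r = 0.994 over 6 arrays), miR-204 (0.984), miR-30e (0.983), miR-9 (0.979) and miR-145 (0.979). The arrays share the pool and the normalization, and 2 separate groups alone give a high r, so the values only name these probes. Their differences, -0.63, -0.73, -0.51, -0.35 and -0.45 in that order, are a description, because the choice fixed a separation of the groups.

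**Figure D5:**
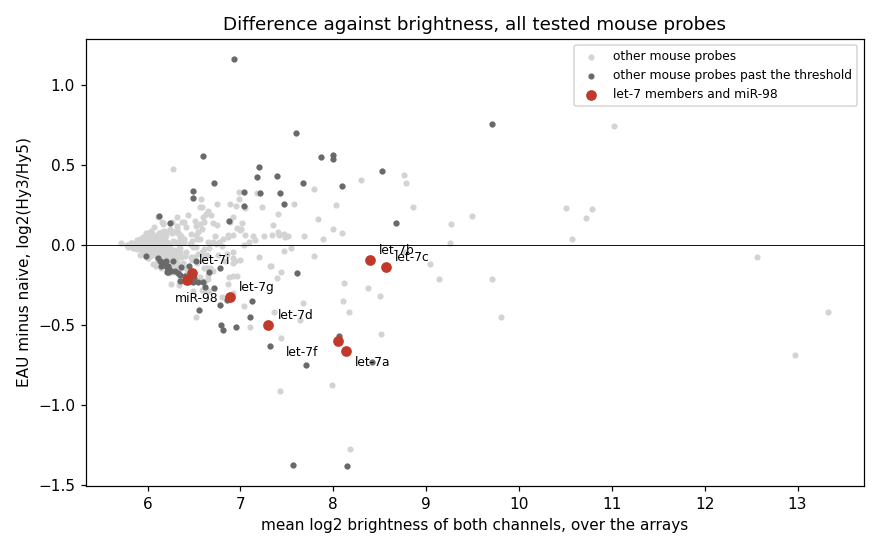
Difference of each of 595 tested mouse probes, EAU minus naive in log2(Hy3/Hy5) (vertical axis), against its mean log2 brightness over both channels and all arrays (horizontal axis). The members are red, other probes past the threshold dark grey and the rest light grey. Let-7b (-0.09) and let-7c (-0.14) lie near 0 at the bright end of the members, beside let-7a (-0.66) and let-7f (-0.60) at similar brightness. In let-7b, let-7c and let-7i the direction turned with median centring and with no normalization.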

How the data were processed

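The authors deposited 1 scanner file per array with spot intensity and local background in 2 channels. Per the file headers, the program was Agilent Feature Extraction 9.1.3.1. They also deposited a table with a linear ratio per probe. Set against the scanner values it follows Hy3 over Hy5 (median r = 0.917 over 583 mouse probes, across the arrays), its column medians are 0.809, 0.886 and 0.807 in EAU and 0.879, 0.851 and 0.769 in naive, and neither its normalization nor its centring is known. The 36 rows above 32 on every array were left out of that table. For the main values, normexp (offset 50) corrected the mean signal for the median local background, and loess, with control spots given weight 0, normalized each array (limma 3.58.1, R 4.3.3). Outlier spots were left out, and spots were averaged on the log2 scale. A probe needed values on 2 arrays per group. EAU was compared with naive by lmFit and eBayes on group alone, two-sided, over 595 probes. A blank level was the median plus 3 median absolute deviations of 144 blank and negative-control spots, and a probe was above it if 50% of its spots were. The fit was tested on simulated data with changes of 1 log2 unit. Every member difference in the main setting is smaller, so this does not cover changes of their size. The number of arrays limits the precision. The members, marker lists and neighbours were chosen with earlier results of these data known. Named are all members, their mouse passenger strands, hairpin neighbours and the 5 probes most like the members' mean.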

Additional observations from a re-analysis of the deposited data

How the results depend on the processing

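Between single spots of a member on an array the log2 ratio had a median SD of 0.27. Between arrays of a group the median SD was 0.06, but of values already averaged over spots, so these SDs are unlike measures. In Hy3, 211 to 279 of the 597 mouse probes lay above the blanks on EAU arrays and 215 to 263 on naive arrays. The total of 77 calls became 2 with median centring, 25 with no normalization, 23 with loess on bright spots, 47 with the median of spots and 2 with the replicate block, and 7 (without EAU replicate 3) to 77 with single arrays left out. It was 9 without naive replicate 1, 15 without naive replicate 2 and 36 without naive replicate 3. The 5 calls among members became 3 with the processed signals, 0 with median centring, 0 with no normalization, 2 with loess on bright spots, 1 with Hy3 alone, 2 in the deposited table and 1 (let-7f, adjusted p = 0.0325) with the replicate block, and 1 to 5 with single arrays left out. It was 1 without EAU replicate 3, naive replicate 1 or naive replicate 2. After each probe's group mean was taken off, samples with the same number correlated at 0.19, -0.15 and 0.29 over 592 probes and were not paired. The direction turned with no normalization in let-7b (0.59), let-7c (0.55), let-7i (0.095), miR-99b (0.037), miR-125b-5p (0.016) and human let-7a (0.048). It turned with median centring in let-7b (0.52), let-7c (0.48) and let-7i (0.026), and with the processed signals in let-7b (0.068) and let-7c (0.069). In the deposited table it turned in let-7b (0.39), let-7c (0.11), let-7e (0.17) and miR-100 (0.23). With Hy3 alone it turned in let-7b (0.050) and, with outlier spots kept, in let-7e (0.24), and with outlier spots kept in let-7b (0.028). The causes of these changes were not tested. Hy3 alone with outlier spots kept, and the probes of other species, were added after seeing the data.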
